A study of Mus musculus with 12 samples.

Results

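The 10 genes examined here encode the enzymes that set the step between fructose 6-phosphate and fructose 1,6-bisphosphate, and the signal that controls it. They were chosen by name as Pfkm, Pfkl, Pfkp, Pfkfb1, Pfkfb2, Pfkfb3, Pfkfb4, Fbp1, Fbp2 and Tigar, and all 10 were found among the 26921 genes of the deposited count table. Left ventricular RNA was sequenced in 6 WT and 6 cmGch1 KO mice aged 16 weeks. WT mice carried floxed alleles of Gch1 on both chromosomes and no Cre. The cmGch1 KO mice carried the same floxed alleles and, in addition, a heterozygous Cre transgene under the α-MHC promoter, which drives expression in cardiomyocytes. Gch1 encodes GTP cyclohydrolase I, the enzyme that starts the synthesis of tetrahydrobiopterin (BH4), and the study asked what loss of its synthesis in cardiomyocytes does to cardiac metabolism. No library of mice with Cre and intact Gch1 was analysed here, so effects of Cre and of the deletion cannot be told apart.

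Phosphofructokinase 1 (PFK1) phosphorylates fructose 6-phosphate and commits it to glycolysis, and fructose bisphosphatase catalyses the opposite step. Fructose 2,6-bisphosphate activates the first enzyme and inhibits the second, and it is made and degraded by the bifunctional enzymes of the PFKFB family. TIGAR, a p53 target, removes the same signal and is known for sending glucose carbon towards the pentose phosphate pathway. In the heart, which burns mostly fatty acids at rest, these enzymes are a known point at which glycolysis responds to insulin, work load and hypoxia.

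Gch1 checked the genotype labels. It lay between 9.27 and 12.1 cpm (counts scaled by library size) in the 6 WT libraries and between 3.92 and 6.32 cpm in the 6 cmGch1 KO libraries, a log2 fold change of -0.96 ± 0.11 (SE; edgeR quasi-likelihood test, Benjamini-Hochberg adjusted p = 6.88e-04). Libraries held 19921398 to 37917806 counts. The libraries labelled cmGch1 KO 2 and cmGch1 KO 3 stood apart from the rest. Xist, which is expressed from an inactive X chromosome, was at 86.7 and 99.1 cpm in these and at most 0.234 cpm in the other 10, and 4 genes of the Y chromosome (Uty, Kdm5d, Eif2s3y and Ddx3y) had no count in them and a sum of 167 to 192 cpm in the others. Mitochondrially encoded genes held 14.9% and 16.1% of their counts, against 18.3% to 22.9% elsewhere. The labels give no sex. By these RNAs cmGch1 KO 2 and 3 read as female and the other 10 libraries, with all 6 WT among them, as male. Sex was thus uneven between the genotypes. Results for Pfkp, Pfkfb1, Pfkfb2, Pfkfb3 and Fbp2 are given with and without cmGch1 KO 2 and 3.

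Of the 9 genes that passed the minimum of 3 cpm in at least 6 libraries, Pfkfb1 and Fbp2 fell in cmGch1 KO hearts, Pfkp rose, and 6 did not pass the test at an adjusted p of 0.05. The background was 1.12% of the 11225 genes tested, with 0.445% lower and 0.677% higher, or 50 and 76 genes. Scaling by library size alone gave 36 and 116 and moved the median log2 fold change of all genes from -0.01 to 0.07. The median over the 9 genes was -0.07. With a covariate for sex-linked RNA, none of the 9 passed, and 0.57% of all genes did. Without cmGch1 KO 2 and 3, again none passed, and 0.339% of all genes did. The fold changes of Pfkfb1, Pfkp and Fbp2 kept their signs in both of these fits. The fits are not separate checks, since the covariate mainly sets cmGch1 KO 2 and 3 apart from the other 10 libraries.

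**Figure D1:**
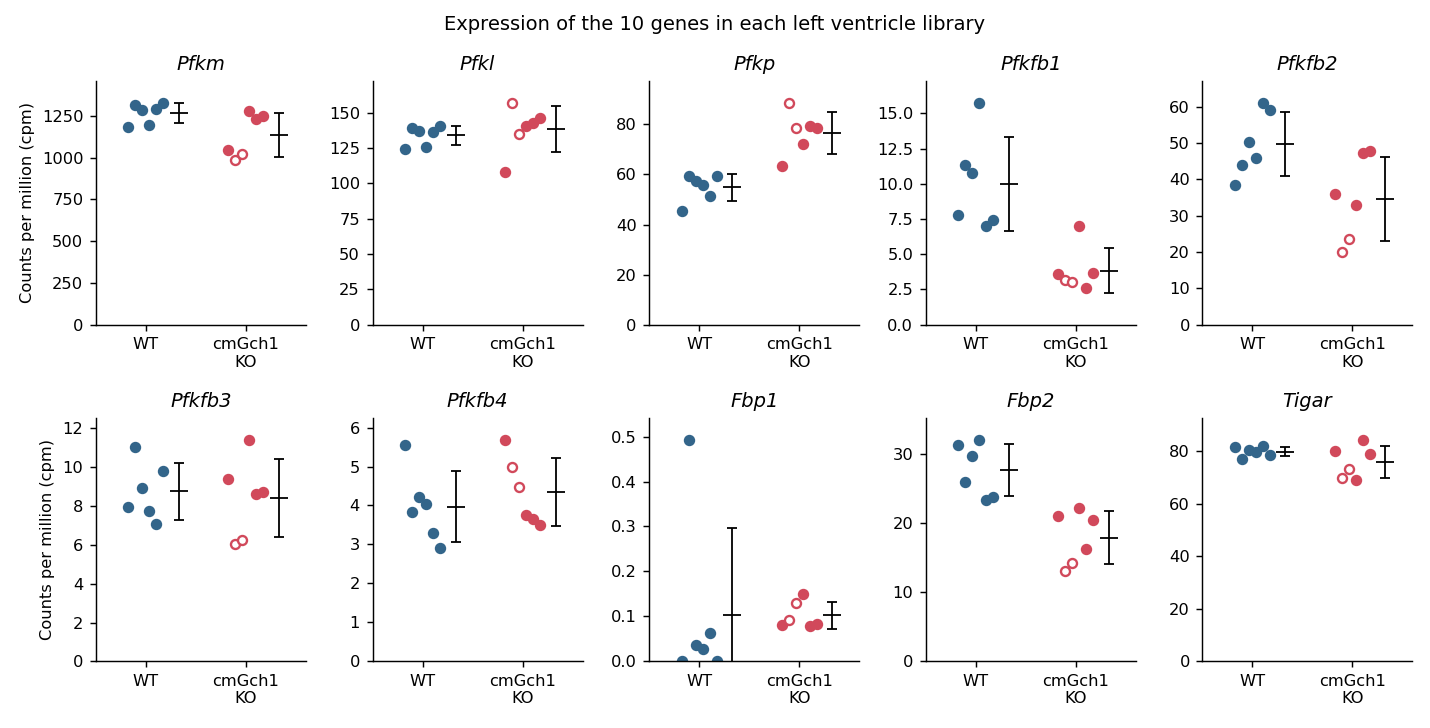
Expression of each gene in cpm, scaled by edgeR's TMM factors, in 6 WT (blue) and 6 cmGch1 KO libraries (red). Open circles are cmGch1 KO 2 and 3, and the black mark and bars at the right of each group are the mean ± SD. Pfkp in cmGch1 KO hearts lies above every WT library and Fbp2 below every WT library, while Pfkfb1 overlaps in 1 cmGch1 KO library at 6.99 cpm.

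Among the PFK1 subunits, Pfkm, the muscle subunit, was the most abundant by far. It ranged over 1185, 1286.5 and 1325 cpm (lowest, median and highest) in WT and over 987, 1137 and 1279 cpm in cmGch1 KO. The 3 lowest libraries of all 12 were cmGch1 KO 1, 2 and 3, and the groups overlapped. Means were 1266 ± 60.5 and 1134 ± 130.3 cpm (SD, n = 6 each), and the log2 fold change of -0.16 ± 0.08 did not pass the test (adjusted p = 0.482, edgeR). Pfkl, the liver subunit, ranged over 124, 137 and 141 cpm in WT and over 108, 141 and 157 cpm in cmGch1 KO. Both the lowest and the highest value were from cmGch1 KO hearts, and the log2 fold change was 0.05 ± 0.08 (adjusted p = 0.911, edgeR).

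Pfkp, the platelet subunit, was the subunit that changed. It ranged over 45.6, 56.6 and 59.4 cpm in WT and over 63.4, 78.4 and 88.5 cpm in cmGch1 KO. Every cmGch1 KO library was above every WT library, a pattern that 1.07% of the genes tested showed in this direction. The mean rose from 54.8 ± 5.37 to 76.7 ± 8.34 cpm (SD, n = 6 each), which is 1.4-fold, with a log2 fold change of 0.48 ± 0.09 (SE; adjusted p = 0.0135, edgeR; exact permutation test, two-sided, p = 0.00216, which is the minimum over 924 splits). Within the group, cmGch1 KO 2 was the highest library and cmGch1 KO 1 the lowest. Without cmGch1 KO 2 and 3 the other 4 cmGch1 KO libraries lay between 63.4 and 79.2 cpm, still above every WT library, and the log2 fold change was 0.42 ± 0.10 (adjusted p = 0.113, edgeR). With the sex-linked covariate it was 0.41 ± 0.09 (adjusted p = 0.0680, edgeR).

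Pfkp lies on chromosome 13 (GRCm38, chr13:6579768-6648777, minus strand). Its exons share 748 bases with Pitrm1 on the opposite strand, and Pitrm1 did not move with it (log2 fold change -0.07 ± 0.08, adjusted p = 0.813, edgeR). The 250 bases before its start site, from RefSeq on GRCm38.p6 (chr13:6648772-6649021, minus strand), are shown because this is the promoter of the subunit that rose. Capitals mark a match to the CCAAT box (CCAAT on either strand, here as ATTGG).
Pfkp: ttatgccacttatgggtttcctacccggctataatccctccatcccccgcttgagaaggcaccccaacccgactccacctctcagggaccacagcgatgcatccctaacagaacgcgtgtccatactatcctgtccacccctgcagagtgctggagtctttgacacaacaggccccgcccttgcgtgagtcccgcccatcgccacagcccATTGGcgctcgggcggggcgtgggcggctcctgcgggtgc
The CCAAT letters were in 33.8% of the 32851 promoter windows of this length. Of the 19 windows of the 10 genes, 7 (36.8%) held them, and these belong to 6 genes. ACGTG, a form of the core of the hypoxia response element, was not in the Pfkp window on either strand. Nor was AAGGTCA, the half-site of estrogen-related receptors, or TATAAA, the TATA box. Other forms of the hypoxia core, such as GCGTG, which the printed window holds, were not searched for.

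Counts were divided by exon length to compare subunits. Pfkm made up 94.0% ± 0.0857 of PFK1 RNA per length in WT and 92.7% ± 1.11 in cmGch1 KO (SD, n = 6 each). The highest cmGch1 KO share, 93.7%, was below the lowest WT share of 93.9%. Pfkp made up 1.01% ± 0.0756 in WT and 1.58% ± 0.265 in cmGch1 KO, with 1.09% as the highest WT share and 1.32% as the lowest cmGch1 KO share. Leaving out cmGch1 KO 2 and 3, the Pfkp share lay between 1.32% and 1.496%. The Pfkl share was 4.97% ± 0.0281 in WT and 5.70% ± 0.848 in cmGch1 KO, and the groups overlapped. Pfkp thus remained the least abundant subunit in both genotypes. These shares depend on the length used. With the longest transcript in place of all exons, the Pfkp share was 1.31% in WT and 2.03% in cmGch1 KO, and the Pfkm share 91.2% and 89.5%.

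The 4 PFKFB genes encode isoenzymes that differ in the balance of kinase and phosphatase activity. Pfkfb1, known as the isoform of liver and skeletal muscle, had the largest fall among the 10 genes. It ranged over 6.98, 9.28 and 15.7 cpm in WT and over 2.57, 3.37 and 6.99 cpm in cmGch1 KO. In cmGch1 KO, 5 libraries lay at or below 3.64 cpm, and cmGch1 KO 4, at 6.99 cpm, just passed the lowest WT library. In the normalised log2 values that the authors deposited, the groups were only just apart. The highest cmGch1 KO value was 8.377 (cmGch1 KO 4) and the lowest WT value 8.380 (WT 5). The mean fell from 10.01 ± 3.34 to 3.83 ± 1.597 cpm (SD, n = 6 each), which is 38.3% of WT, with a log2 fold change of -1.37 ± 0.26 (SE; adjusted p = 0.0158, edgeR; exact permutation test, two-sided, p = 0.00433).

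The 2 libraries with Xist had 3.15 and 3.05 cpm of Pfkfb1, within the range of the other 4 cmGch1 KO libraries. Without them the log2 fold change was -1.24 ± 0.30 and no longer passed the test (adjusted p = 0.141, edgeR). With the sex-linked covariate it was -1.24 ± 0.28 (adjusted p = 0.0843, edgeR). Pfkfb1 is itself on the X chromosome. It passed the test in each of the 12 fits that left out 1 library, with log2 fold changes between -1.64 without cmGch1 KO 4 and -1.20. The highest adjusted p was 0.0454 (edgeR), without WT 3, near the threshold.

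Pfkfb1 spans chrX:150588229-150643878 on the plus strand (GRCm38). Its exons share 123 bases with Apex2 on the opposite strand. Apex2, which encodes a DNA repair nuclease, had a mean of 6.004 cpm in WT and of 4.13 cpm in cmGch1 KO and a log2 fold change of -0.54 ± 0.19 that did not pass the test (adjusted p = 0.256, edgeR). The gene is known to be transcribed from several promoters that give different first exons, and the gene counts do not separate them. The windows before 2 start sites at which coding transcripts begin in GENCODE M21 are shown (RefSeq, GRCm38.p6, plus strand). The fall cannot be assigned to any one start. RefSeq windows further upstream, before chrX:150587445 and chrX:150588243, are not shown, since no full-length coding transcript begins there. Capitals mark matches to TATAAA and to AAGGTCA (read as TGACCTT) in the upstream window, chrX:150589666-150589915, and to CCAAT (read as ATTGG) in the downstream window, chrX:150594178-150594427.
Pfkfb1, upstream start: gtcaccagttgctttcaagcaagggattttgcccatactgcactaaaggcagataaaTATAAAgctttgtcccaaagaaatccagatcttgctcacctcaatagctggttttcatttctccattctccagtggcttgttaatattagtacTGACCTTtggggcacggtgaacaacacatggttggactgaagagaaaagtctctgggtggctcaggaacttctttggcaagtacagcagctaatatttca
Pfkfb1, downstream start: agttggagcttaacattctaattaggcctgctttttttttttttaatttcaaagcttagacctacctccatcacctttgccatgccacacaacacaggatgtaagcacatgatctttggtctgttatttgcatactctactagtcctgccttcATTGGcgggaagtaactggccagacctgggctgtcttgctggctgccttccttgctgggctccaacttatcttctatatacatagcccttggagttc
The upstream window is the 1 window among the 19 windows of the 10 genes with AAGGTCA, which was in 4.08% of all windows, and the 1 with TATAAA, which was in 12.4%. Neither window holds ACGTG.

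Pfkfb2, the heart isoform, whose kinase activity is raised by phosphorylation downstream of insulin and adrenaline, was the most abundant of the 4. It ranged over 38.4, 48.0 and 60.9 cpm in WT and over 19.9, 34.4 and 47.7 cpm in cmGch1 KO, with overlap. The 2 lowest libraries were cmGch1 KO 2 and 3, at 19.9 and 23.4 cpm, and the other 4 lay between 32.9 and 47.7 cpm. The log2 fold change was -0.52 ± 0.20 over all 12 libraries and did not pass the test (adjusted p = 0.296, edgeR). It was -0.28 without cmGch1 KO 2 and 3, or 40.9 ± 7.60 against 49.7 ± 8.87 cpm in WT (SD). A share of 15.9% of the 50-base stretches of its transcripts was also in those of Gm29427, an overlapping annotated gene on the same strand, which had 0.379 cpm in WT.

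Pfkfb3, the isoform with the strongest kinase activity and a hypoxia target, ranged over 7.08, 8.43 and 11.04 cpm in WT and over 6.06, 8.66 and 11.4 cpm in cmGch1 KO. The cmGch1 KO libraries 2 and 3 were the 2 lowest of all 12, and the other 4 were between 8.61 and 11.4 cpm. Its log2 fold change was -0.05 ± 0.16 (adjusted p = 0.956, edgeR) with all libraries and 0.13 ± 0.14 without these (adjusted p = 0.983, edgeR). Pfkfb4, described in testis and also a hypoxia target, ranged over 2.92, 3.93 and 5.55 cpm in WT and over 3.50, 4.11 and 5.68 cpm in cmGch1 KO. Its groups overlapped, and the log2 fold change was 0.12 ± 0.17 (adjusted p = 0.882, edgeR).

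Per exon length, the sum of the 4 PFKFB genes was 11.3 ± 0.988 cpm per kilobase in WT and 7.71 ± 1.73 in cmGch1 KO (SD, n = 6 each). The lowest WT library, 9.41, was just above the highest cmGch1 KO library, 9.35. With the longest transcript as length the groups overlapped, with 14.7 as the lowest WT and 14.8 as the highest cmGch1 KO value. Leaving out cmGch1 KO 2 and 3, the cmGch1 KO sum lay between 8.27 and 9.35. Pfkfb2 supplied 60.4% ± 7.87 of this sum in WT and 60.5% ± 8.80 in cmGch1 KO. Pfkfb1 supplied 21.96% ± 6.58 in WT and 12.6% ± 4.62 in cmGch1 KO, with overlap. No test was made on these sums and shares.

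**Figure D2:**
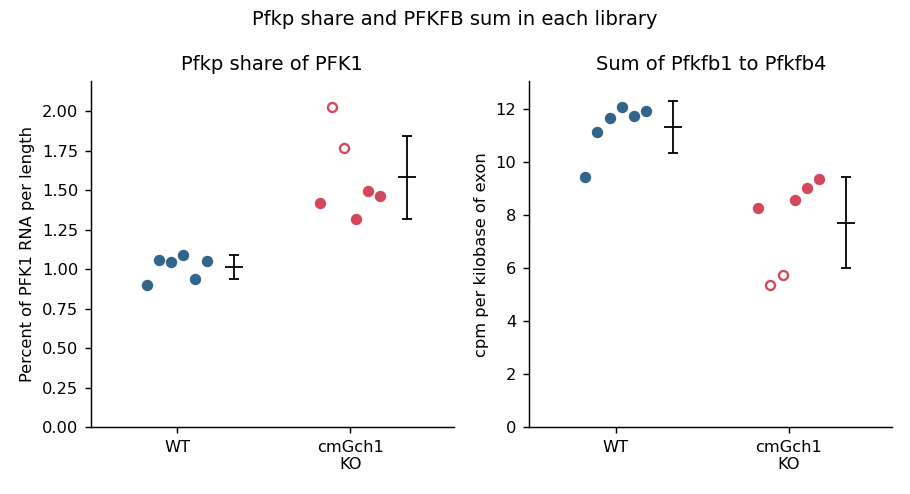
The share of Pfkp in the sum of the 3 PFK1 subunits (percent, left) and the sum of the 4 PFKFB genes (cpm per kilobase of exon, right) in each library. WT libraries are blue, cmGch1 KO libraries red, cmGch1 KO 2 and 3 open, with mean ± SD at the right of each group. The genotypes do not overlap in either panel, although with the longest transcript as length the PFKFB sum overlaps (14.7 in the lowest WT and 14.8 in the highest cmGch1 KO library).

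Of the bisphosphatases, Fbp2, the muscle form, was the one expressed in these hearts. It ranged over 23.4, 27.8 and 32.0 cpm in WT and over 13.0, 18.4 and 22.2 cpm in cmGch1 KO. All 6 cmGch1 KO libraries lay under the lowest WT library, which 0.802% of the genes tested showed in this direction. The mean fell from 27.7 ± 3.78 to 17.9 ± 3.87 cpm (SD, n = 6 each), or 64.6% of WT, with a log2 fold change of -0.63 ± 0.14 (SE; adjusted p = 0.0438, edgeR; exact permutation test, two-sided, p = 0.00216). The 2 lowest libraries were cmGch1 KO 2 and 3, whose mean was 13.6 cpm. The other 4 lay between 16.3 and 22.2 cpm, all below WT, and gave a log2 fold change of -0.46 ± 0.12 (adjusted p = 0.189, edgeR). The call for Fbp2 was the least stable of the 3. It passed in 3 of the 12 fits that left out 1 library (cmGch1 KO 1, 4 or 6), with adjusted p-values (edgeR) from 0.0309 without cmGch1 KO 1 to 0.115 without WT 3.

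Fbp2 (chr13:62836877-62858422) and Fbp1 (chr13:62864753-62888282) are neighbours on the minus strand of chromosome 13 in GRCm38. Their coding sequences were 70.7% identical, with no identical run longer than 23 bases. The window before the Fbp2 start site (RefSeq, GRCm38.p6, chr13:62858401-62858650, minus strand) is shown as the promoter of the bisphosphatase that fell. Capitals mark CACGTG, which reads the same on both strands and so holds ACGTG on each.
Fbp2: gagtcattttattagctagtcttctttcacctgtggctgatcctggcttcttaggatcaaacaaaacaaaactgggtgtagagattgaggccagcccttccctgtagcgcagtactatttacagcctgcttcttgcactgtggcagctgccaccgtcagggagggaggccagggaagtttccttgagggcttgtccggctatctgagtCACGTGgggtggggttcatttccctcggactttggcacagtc
ACGTG was in 16.6% of all windows and in 7 of the 19 windows (36.8%) of the 10 genes. These belong to 4 genes, Fbp2, Pfkfb2, Pfkfb3 and Pfkm. Of these 4, Fbp2 passed the test for a fall and the other 3 did not pass. The Fbp2 window holds none of the other 3 motifs.

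Fbp1, the liver form, did not pass the cpm minimum. It had 2 to 5 counts in each cmGch1 KO library and 0 to 2 counts in 5 WT libraries, 2 of which had no count. A count of 0, taken to allow 3 counts, is a level of at most 0.0930 cpm in WT 1 and 0.137 cpm in WT 6. WT 2 had 17 counts of Fbp1, or 0.493 cpm. The same library had 30.4 cpm of Alb, the gene for serum albumin, against at most 1.295 cpm in the other 11. No difference in Fbp1 between genotypes was detectable at this depth (log2 fold change -0.09 ± 0.80, adjusted p = 0.987, edgeR with no filter).

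Tigar, the bisphosphatase induced by p53, varied least between WT libraries. It ranged over 77.1, 80.1 and 81.8 cpm in WT and over 68.9, 76.2 and 84.3 cpm in cmGch1 KO. The WT range lay inside that of cmGch1 KO, and the log2 fold change was -0.07 ± 0.06 (adjusted p = 0.751, edgeR).

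**Figure D3:**
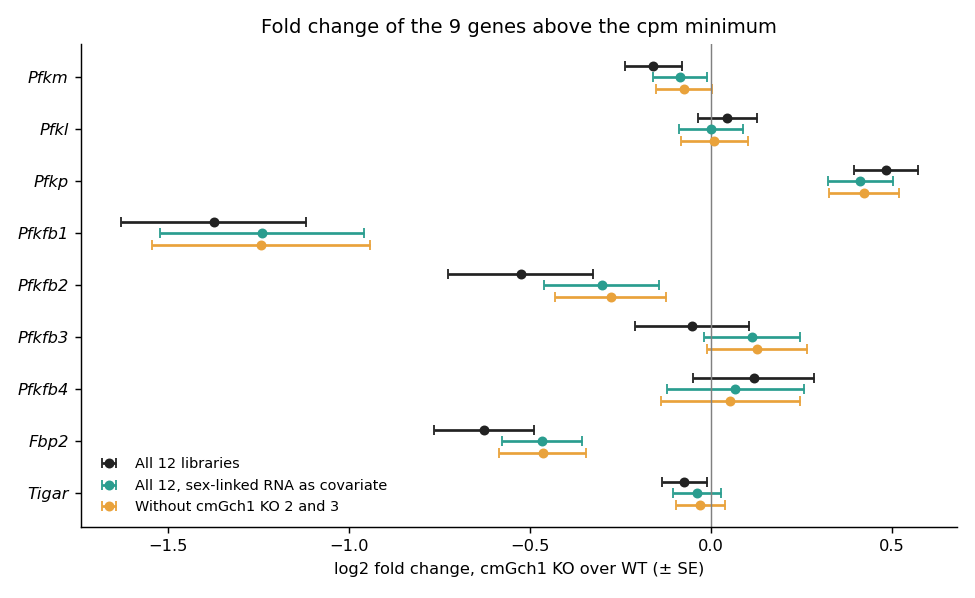
Log2 fold change of cmGch1 KO over WT for the 9 genes above the cpm minimum, with bars of 1 SE, fitted with all 12 libraries (black), with sex-linked RNA as a covariate (green) and without cmGch1 KO 2 and 3 (orange). Pfkp stays above 0 (0.41 to 0.48) and Pfkfb1 (-1.37 to -1.24) and Fbp2 (-0.63 to -0.46) stay below 0 in all 3 fits, while Pfkfb3 changes sign. The green and orange fits are not separate checks, since the covariate mainly sets cmGch1 KO 2 and 3 apart.

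As levels per exon length, the 10 genes in WT hearts ran from Pfkm at 379 ± 18.1 cpm per kilobase (SD, n = 6) through Tigar at 21.8 ± 0.510, Pfkl at 20.1 ± 1.04, Fbp2 at 18.8 ± 2.57, Pfkfb2 at 6.86 ± 1.22, Pfkp at 4.09 ± 0.401, Pfkfb1 at 2.49 ± 0.832, Pfkfb3 at 1.16 ± 0.195 and Pfkfb4 at 0.815 ± 0.187 to Fbp1. The neighbours Pfkl and Fbp2, Pfkp and Pfkfb1, and Pfkfb3 and Pfkfb4 overlapped between libraries and were not separated. In cmGch1 KO hearts Pfkp, at 5.72 ± 0.622, and Pfkfb2, at 4.76 ± 1.6, overlapped, as did Tigar and Pfkl, whereas in WT every library of Pfkfb2 was above every library of Pfkp. Pfkfb1, at 0.954 ± 0.398 in cmGch1 KO, overlapped with Pfkfb3 at 1.11 ± 0.267 and Pfkfb4 at 0.891 ± 0.178. With the longest transcript as the length, Pfkl ranked above Tigar. The PFK1 sum was 21.8 ± 3.87 times Fbp2 in WT and 30.9 ± 5.38 times in cmGch1 KO (SD, n = 6 each), with overlap.

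**Figure D4:**
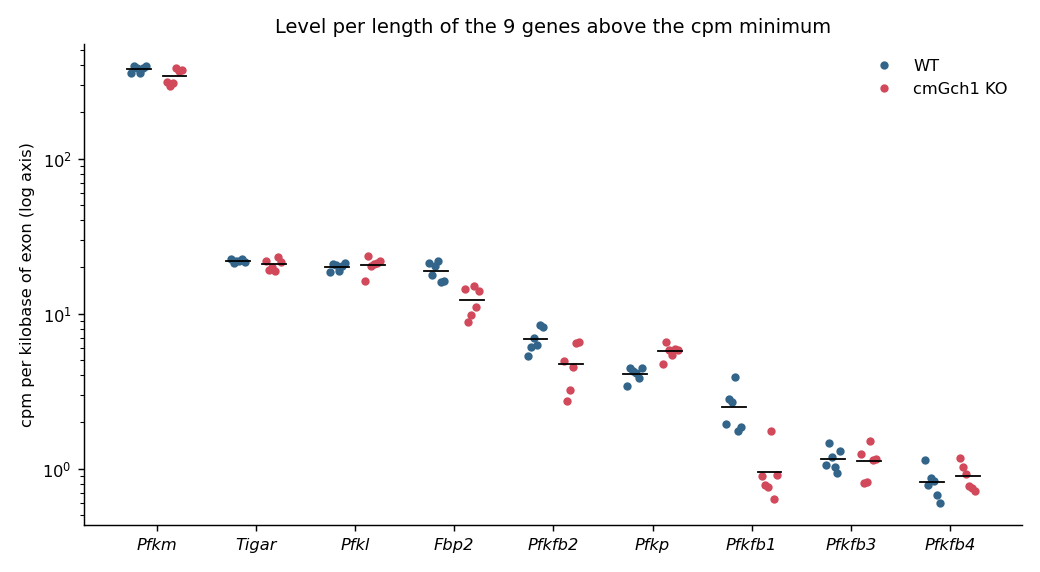
Level of the 9 genes above the cpm minimum in cpm per kilobase of exon, on a log axis, in WT (blue) and cmGch1 KO libraries (red). Points are libraries and lines are group means, and Pfkm at 379 cpm per kilobase in WT is far above Tigar, the next gene, at 21.8.

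The coding sequences of each family were compared, since reads from like sequences can be split in counting. Within each family the coding sequences were 68.1% to 72.1% identical, and the longest identical run was 36 bases, between Pfkfb2 and Pfkfb4. No stretch of 50 bases of Pfkp, Pfkfb1, Pfkfb4, Fbp1, Fbp2 or Tigar was found in the transcripts of another gene. For Pfkm, 8.83% of the stretches were shared with Gm26513, a gene that had 0.246 cpm in WT.

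The libraries had the markers of ventricular muscle. Of the cell type markers tested, Acta2 alone passed the test between genotypes, where 1.12% of all genes did. The summed level of 8 cardiomyocyte markers (Myh6, Myl2, Tnnt2, Tnni3, Actc1, Ryr2, Pln and Myl3) was 62403 to 66048 cpm in WT and 56311 to 60317 cpm in cmGch1 KO, without overlap, although 0 of the 8 passed the test. Of these 8, 7 had negative log2 fold changes and Actc1 a positive value of 0.10. Among single genes tested, 0.802% were lower without overlap. The 6 macrophage markers (Cd68, Adgre1, Csf1r, C1qa, C1qb and Mrc1) summed to 132 to 168 cpm in WT and 165 to 208 cpm in cmGch1 KO. All 6 were higher at an unadjusted p under 0.05, which 7.01% of all genes met in this direction, and 0 passed after adjustment. With the sex-linked covariate 3 of the 6 met this, as did 512 of all 11225 genes, and all 6 stayed positive. The sums of cmGch1 KO 2 and 3 were 199.5 and 190.5 cpm. Of the 6 smooth muscle and pericyte markers, Acta2 passed the test for a rise (log2 fold change 0.66), 4 had negative values and the median was -0.06. The sums of this list overlapped. The 5 red blood cell markers all had negative log2 fold changes, with a median of -0.39, and 0 passed. Atrial markers (Myl7, Myl4, Sln and Bmp10) summed to 7.62 to 284 cpm in WT and 45.1 to 187 cpm in cmGch1 KO. The sums of endothelial and fibroblast markers overlapped. Skeletal muscle markers, which matter for Fbp2 and Pfkfb1, summed to 2.33 to 4.11 cpm in WT and 3.20 to 6.89 cpm in cmGch1 KO, 0 of 8 passed the cpm minimum, and Myh4 had no count. Their part in the changes of Pfkp, Pfkfb1 and Fbp2 was not tested. In whole tissue, fewer cells of a type and less RNA per cell cannot be told apart.

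Among the 19 other glycolytic enzymes listed here, 14 were tested, with a median log2 fold change of 0.07. By the edgeR test 0 fell and 1 rose, where 0.445% and 0.677% of all genes did. At an unadjusted p under 0.05, 0 were lower and 4 higher, where 4.51% and 7.01% of all genes were. Scaling by library size alone made this 6 higher. Of all 11225 genes, 1478 were then higher and 237 lower, against 787 and 506 with TMM factors. Hk1, a hexokinase upstream of PFK1, rose from 191 ± 11.3 to 249.5 ± 30.8 cpm (log2 fold change 0.39 ± 0.08, adjusted p = 0.0407, edgeR). Gapdh, which has many near-identical copies in the genome, varied from 6.43 to 136 cpm between libraries and is uncertain. Of 6 other gluconeogenic enzymes 4 were tested and none passed, where 1.12% of all genes did. The smallest p-values were those of Pcx, which makes oxaloacetate from pyruvate, at a log2 fold change of -0.17 ± 0.07 (adjusted p = 0.346, edgeR), and Pck2, at 0.10 ± 0.11 (adjusted p = 0.831, edgeR).

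In the pentose phosphate pathway, 8 of 9 genes were tested and Pgd, its second dehydrogenase, rose from 29.3 ± 0.990 to 35.96 ± 2.48 cpm (SD, n = 6 each; log2 fold change 0.29 ± 0.06, adjusted p = 0.0366, edgeR), with no overlap. The other 7 did not pass, and the median was 0.06. Of all genes tested, 0.677% passed for a rise. Of 15 tested genes of the p53 list, which includes the pathway that induces Tigar, 2 rose, where 0.677% of all genes did. These were Phlda3, an inhibitor of AKT, at 1.22 ± 0.17 (adjusted p = 0.00227, edgeR), and Eda2r, a receptor of the TNF receptor family, at 0.63 ± 0.12 (adjusted p = 0.0237, edgeR), and the median of the list was 0.17. At an unadjusted p under 0.05, 6 genes of the list were higher and 1 lower, against 7.01% and 4.51% of all genes. Trp53 itself had a log2 fold change of 0.16 and Cdkn1a one of 0.79, and neither passed. Without cmGch1 KO 2 and 3, Phlda3 still passed, and Hk1, Pgd and Eda2r had adjusted p-values of 0.181, 0.148 and 0.0940 (edgeR). With 1 library left out, 11 of 12 fits called no gene of the glycolytic list higher and 10 of 12 none of the pentose phosphate list.

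None of the 18 tested kinase genes that act on PFKFB enzymes passed (AMPK and PKA subunits and AKT among them), where 1.12% of all genes did. Their median was 0.00. Prkag3, a regulatory subunit of AMPK, at 0.34 ± 0.15 (adjusted p = 0.390, edgeR), and Prkaa1, a catalytic subunit, at 0.13 ± 0.07 (adjusted p = 0.500, edgeR), had the smallest p-values. Of 14 tested hypoxia factors and targets, none passed after adjustment, where 1.12% of all genes did, and the median was -0.11. At an unadjusted p under 0.05 there were 3 lower and 2 higher genes, against 4.51% and 7.01% of all genes. Pdk1, which restrains pyruvate dehydrogenase, had a log2 fold change of -0.22 ± 0.06 (adjusted p = 0.118, edgeR), and Egln1, an oxygen sensor, one of -0.17 ± 0.06 (adjusted p = 0.207, edgeR).

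**Figure D5:**
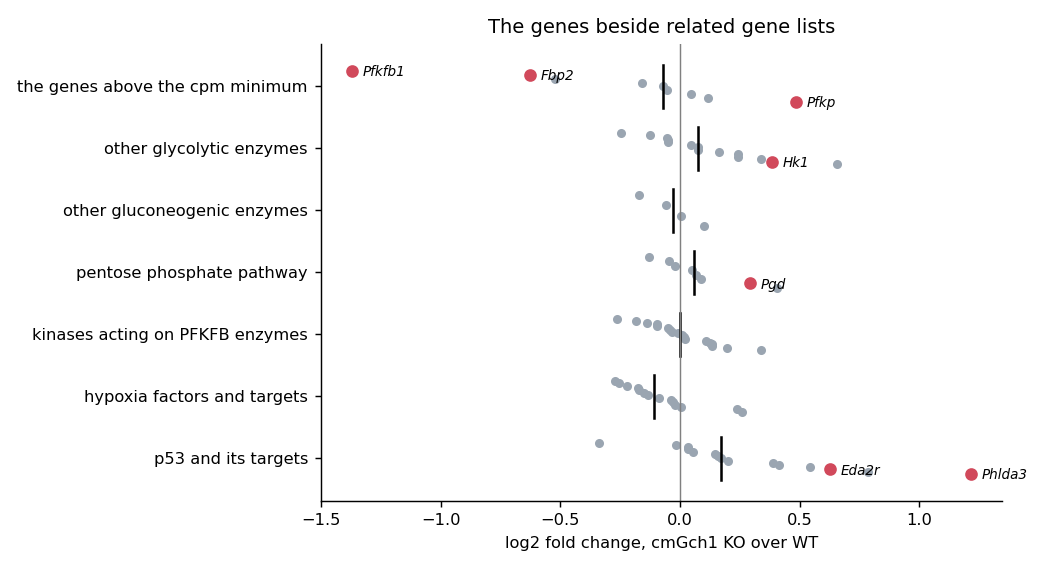
Log2 fold change of cmGch1 KO over WT for each tested gene (points) in the 9 genes above the cpm minimum and in 6 related lists, with red points and names for an adjusted p under 0.05 and black lines for the list medians. Medians lie between -0.11 and 0.17, and Pfkfb1 at -1.37 is the farthest from 0.

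The genes whose level followed the 3 changed genes most closely across all 12 libraries were found by Pearson correlation of log2 cpm. For Pfkp these were Xpot (r = 0.94), Prkcd (0.94) and Ehd4 (0.93), for Pfkfb1 they were Gpcpd1 (0.98), Slc25a13 (0.98) and Slc40a1 (0.92), and for Fbp2 they were Adk (0.94), Gpt (0.94) and Decr1 (0.93). The libraries share their genotype difference. After the group means were taken out, r was 0.94 for Gpcpd1, 0.93 for Slc25a13 and 0.74 for Slc40a1, between 0.68 and 0.79 for the genes of Pfkp, and between 0.81 and 0.86 for those of Fbp2. These are the same libraries in which the genes were picked, so the values are a description.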

How the data were processed

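RNA-seq counts of left ventricular tissue from 6 WT and 6 cmGch1 KO mice were analysed, grouped by the genotype and numbered by the replicate that the labels give. In the study's methods each animal was 1 sample, libraries were stranded with dUTP and sequenced as read pairs, and reads were counted with HISAT2, Picard and featureCounts. The submitters' processing notes name GRCm38, HISAT2 and SAMtools. The strand setting, the annotation and the tool behind the normalised table are not given in the sources used here. The authors deposited raw counts per Ensembl gene, which were whole numbers, and a second table of normalised values on a log2 scale. Of 26921 identifiers, 26582 (98.7%) were found in GENCODE M21, which gave symbols, coordinates and exon lengths. Neither table holds comparisons made by the authors.

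Counts were analysed with edgeR 4.0.16 in R 4.3.3 (TMM factors, cpm over 3 in at least 6 of the 12 libraries, quasi-likelihood test on genotype, Benjamini-Hochberg adjustment over the 11225 genes tested, threshold 0.05). Exact permutation tests used all 924 splits of 6 against 6. The p-values set the difference between genotypes against the spread between these animals. Levels of different genes were compared as cpm per kilobase of all annotated exons. Library depths were 19921398 to 37917806 counts, reads carry no molecular identifiers, and the limit set by 3 counts covers counting error only. Alternatives were the size factors and the Wald test of DESeq2 1.42.0, library size alone, 2 other filters, leaving out mitochondrially encoded genes, the replicate number as a block, a covariate for sex-linked RNA (Xist and 4 Y-linked genes), limma 3.58.1 on the deposited log2 values, leaving out each library in turn, and leaving out cmGch1 KO 2 and 3.

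The 10 genes, the related lists and the alternatives were chosen with earlier results of these data known. Named genes are the 10, Gch1, the list genes that passed the test or, where none did, the 2 with the smallest p, the 3 genes most correlated with each changed gene, the sex-linked genes and the markers. Genes overlapping one of the 10, Gapdh, Trp53, Cdkn1a and the liver genes of WT 2 were named after their values were seen. Promoter windows were taken from RefSeq (GRCm38.p6), where all 10 genes matched with 19 windows, and motif matches were counted on both strands of the 250 bases before each start. Protein sequences were not used here. One further gene of the glycolytic list is not reported here.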

Additional observations from a re-analysis of the deposited data

Results flagged for a closer look

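In 48 groups of 6 values examined, 3 had a single library far from the other 5, with a gap to the nearest value that passed Dixon's critical value. Chance alone gives about 1 in 20, or 2.4 of these groups.

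Pfkfb1 in cmGch1 KO 4 was at 6.99 cpm, while the other 5 cmGch1 KO libraries lay between 2.57 and 3.64 cpm. This library alone brings the groups into contact. The sum of the 4 PFKFB genes in WT 1 was 9.41 cpm per kilobase, below the 11.1 to 12.1 of the other 5 WT libraries. Fbp1 in WT 2 was at 0.493 cpm, against at most 0.0632 cpm in the other 5 WT libraries.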

How the results depend on the processing

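Pfkp, Pfkfb1 and Fbp2 kept their direction and their call under 8 of 10 alternatives each, other than leaving out 1 library. The exceptions were the sex-linked covariate and the fit without cmGch1 KO 2 and 3. Log2 fold changes were then 0.41 and 0.42 for Pfkp, -1.24 and -1.24 for Pfkfb1 and -0.47 and -0.46 for Fbp2, and 0 genes were lower and 0 higher in each. In the same fits 1 gene of the p53 list was called. The glycolytic list had 0 genes called higher under 6 of the 10 alternatives and in 11 of the 12 fits without 1 library, and the pentose phosphate list under 4 and in 10. Leaving out 1 library at a time, Fbp2 ranged from -0.70 to -0.56 and passed only without cmGch1 KO 1, 4 or 6, so that 1 to 2 of the 10 genes were lower. Pfkfb1 ranged from -1.64 to -1.20, Pfkp from 0.43 to 0.53 and Gch1 from -1.01 to -0.88, all past the threshold. Their highest adjusted p-values (edgeR) were 0.0454, 0.0490 and 0.00341. Pfkfb3 turned positive with library size alone (0.013), with the covariate (0.11), without cmGch1 KO 2 and 3 (0.13), and without WT 2 (0.027), cmGch1 KO 2 (0.016) or cmGch1 KO 3 (0.013), and ranged from -0.16 to 0.027 with 1 library left out, while Tigar turned positive with library size alone (2.98e-04). The longest transcript as length moved the Pfkm share to 91.2% in WT and 89.5% in cmGch1 KO the Pfkp share to 1.31% and 2.03% and the PFKFB sum to 17.7 and 12.1 cpm per kilobase. Over all genes, 126 passed by edgeR, 375 by DESeq2's Wald test, 64 with the covariate and 38 without cmGch1 KO 2 and 3. The cause of these changes was not tested.

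With the replicate number as a block, 2 of the 10 genes were lower and 1 higher as before (log2 fold change -1.39 for Pfkfb1, 0.48 for Pfkp and -0.64 for Fbp2), and 188 genes passed in all. The number pairs nothing that the labels name. Same-numbered libraries deviated together with correlations of 0.676, -0.0945, -0.0775, -0.128, 0.401 and 0.509, and libraries 1, 5 and 6 correlated best with their own number. Depth limits Fbp1, which had 0 to 17 counts a library.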

Other observations

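WT 2 also held more RNA of other genes that are abundant in liver. Looked at after the values of Fbp1 had been seen, Alb was at 30.4 cpm (1048 counts) in WT 2 and at most 1.295 cpm in the other 11 libraries, Apoa1 at 5.13 and at most 0.344 cpm, Ttr at 3.01 and at most 0.430 cpm, and Fabp1 at 1.101 and at most 0.172 cpm. Their part in the Fbp1 value of this library was not tested.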
